A study of Mus musculus with 21 samples.

Results

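The late state of macrophages given FcMR was read from 6 of the 21 libraries of the study, 3 of cells treated with FcMR for 24 h and 3 of cells treated with an isotype control for 24 h. The libraries were chosen by the treatment and time in their titles. FcMR is a recombinant fusion that joins the ectodomain of the mannose receptor, a sugar-binding endocytic receptor encoded by Mrc1, to the Fc part of a human antibody (IgG1), and the isotype control is not described further in the labels. The series describes every macrophage culture, the isotype and untreated ones included, as deficient in the mannose receptor, on the C57BL/6J background. Marrow of mouse leg bones had been cultured for 7 days with supernatant of a line that secretes GM-CSF, under which marrow precursors turn into macrophages and related cells. The doses of both proteins and the age of the mice are not given in the sources used here. The untreated libraries are labelled 0 h, and none is untreated at 24 h. Wherever cells of 24 h are set beside untreated cells, treatment and time in culture cannot be told apart. No label says that replicate libraries came from separate mice or cultures, so p-values measure the spread between these libraries, which may be technical.

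Macrophages that meet an inflammatory signal first release cytokines and chemokines whose genes carry short-lived transcripts. Over the following hours they exchange surface receptors, leave the cell cycle and turn nutrients towards arachidonic acid, arginine and itaconate metabolism. Anti-inflammatory cytokines and inhibitors of NF-kB, a transcription factor that drives many inflammatory genes, rise alongside and dampen the response. A comparison at 24 h describes which of these genes still differ, and the same contrast at 4 and 12 h shows which differences are early or late.

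The FcMR libraries held 9309173, 26310320 and 7951434 counts and the isotype libraries 9556249, 8706810 and 7402006, so that 3 counts correspond to 0.114 to 0.405 CPM, the count scaled to library size. The FcMR replicate 2 stood apart: it was the deepest, and its GC tilt, which sets the 10% of genes highest in GC against the 10% lowest on the log2 scale, relative to all 21 libraries, was lowest of the 6 (−1.26, against −0.346 and 0.41 in the other FcMR libraries and −0.0892 to −0.0277 with isotype). Calls without it are given beside many results, and counts printed without such a value may also differ without it. On the log2 CPM scale, pairs of FcMR libraries correlated at 0.95 to 0.973 and pairs of isotype libraries at 0.979 to 0.98. Mrc1 lay at 0 to 4 counts in the FcMR libraries and at 4 to 6 in the isotype libraries, too few for the test; these counts check the labelled deficiency and cannot show the deleted part. The 6 macrophage markers were all present, at a sum of 24300 to 26200 CPM with FcMR and 29300 to 33300 CPM with isotype. Among them Adgre1 was called higher by 0.85, Fcgr1, Mertk and Lyz2 were called lower, and Csf1r and Cd68 were not called. Here and for proliferation genes, fewer cells of a kind and less RNA per cell cannot be told apart in bulk libraries. The pan-leukocyte gene Ptprc did not pass the test either (log2 fold change 0.10, SE 0.138, edgeR adjusted p 0.702).

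Across the transcriptome, FcMR and isotype cells differed broadly at 24 h. edgeR's quasi-likelihood test called 2813 of 13468 genes (20.9%) at a Benjamini-Hochberg adjusted p under 0.05, 1541 higher with FcMR (11.4%) and 1272 lower (9.44%). The 3 libraries of one treatment lay entirely above or below the 3 of the other for 4635 genes (34.4%), and the median log2 fold change of all genes tested was 0.006. Of the called genes, 541 were higher and 505 lower by more than 2-fold. Without FcMR replicate 2, 2227 genes were called, and with the 6 libraries of 24 h alone 1995 were. With a correction for GC content 3992 were called (29.6%), 1950 higher (14.5%) and 2042 lower (15.2%), so that the larger share turned from higher to lower.

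The 12 protein-coding genes with the highest fold changes, among called genes whose mean over all 21 libraries was 1 log2 CPM or more and whose groups did not overlap, included 3 interleukin genes and the transporter gene Slc1a2. Slc1a2 (ENSMUSG00000005089.15, chromosome 2, 102658659 to 102790784), a glutamate transporter best known from astrocytes, was at 95.3, 118 and 89.8 CPM with FcMR and 0.881, 0.428 and 0.643 CPM with isotype (log2 fold change 7.25, SE 0.211, edgeR adjusted p 1.42e-13). Untreated cells were near the isotype level, at 0.582, 0.367 and 0.326 CPM. Clec4e (ENSMUSG00000030142.10, chromosome 6, 123281789 to 123289870), which encodes the glycolipid receptor Mincle, was the most abundant of the 12. It was at 3152, 4155 and 2661 CPM with FcMR and 185, 189 and 199 CPM with isotype (log2 fold change 4.12, SE 0.161, edgeR adjusted p 8.24e-12). The effect on Clec4e was 0.78 at 4 h and 1.801 at 12 h, and the difference of 3.34 between 24 h and 4 h passed the test (edgeR adjusted p 2.11e-08). Il1b (ENSMUSG00000027398.13, chromosome 2, 129364570 to 129371139), an inflammatory cytokine, was at 1888, 2130.3 and 1660.4 CPM with FcMR and 83.2, 91.3 and 99.9 CPM with isotype, a 20.7-fold difference (edgeR adjusted p 5.19e-12).

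Several others of the 12 were near the detection limit with isotype. Il12a, which encodes the p35 subunit of IL-12, was at 10.1, 13.6 and 12.8 CPM with FcMR and 0.49, 0.428 and 0.386 CPM with isotype (log2 fold change 4.77, SE 0.261, edgeR adjusted p 5.08e-10). Il10, the anti-inflammatory cytokine, had 2 counts in the 3 isotype libraries together and 75 in the FcMR libraries, a ratio of 22.7 with a 95% counting interval of 6.06 to 191. Shisa3, a membrane protein, had no counts with isotype and 5 to 27 with FcMR, at least 7.86-fold higher against a floor of 3 counts over the isotype group. The Notch ligand Dll4 was at 3.8, 3.52 and 9.37 CPM with FcMR and 0.196, 0.214 and 0 CPM with isotype (log2 fold change 5.13, SE 0.696, edgeR adjusted p 2.76e-05), and FcMR replicate 3 was the highest of the 3. The collagen-binding anthrax toxin receptor Antxr1 and the globin-related gene Adgb were higher by 4.39 (SE 0.406) and 4.14 (SE 0.196) on the log2 scale. Trim43b rose by 4.35 (SE 0.616), and its counts are uncertain because estimated counts can be split among near-identical Trim43 copies.

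Cd247 and Pdgfrb also belong to the 12 and serve as markers of other cell types. Cd247, the zeta signalling chain of T-cell and some Fc receptors, was at 6.16, 8.04 and 10.2 CPM with FcMR and 0.0979, 0 and 0.771 CPM with isotype (log2 fold change 4.92, SE 0.53, edgeR adjusted p 1.94e-06). Pdgfrb, a growth factor receptor of stromal cells, was at 5.24, 3.67 and 6.57 CPM with FcMR and 0.196, 0.107 and 0.257 CPM with isotype (log2 fold change 4.73, SE 0.436, edgeR adjusted p 3.03e-07). The 6 T-cell and NK-cell markers in the gene table summed to 8.73 to 12.4 CPM with FcMR and 2.03 to 3.73 with isotype, and 1 of the 3 that could be tested, Cd247 itself, was called. Cd3e was at 0 in all FcMR libraries, and Cd3d and Cd3g were at or below 0.205 CPM there. The 7 fibroblast markers summed to 8.99 to 11.8 CPM with FcMR and 0.428 to 1.67 with isotype, with Pdgfrb and Dcn called higher, Col1a1 not called, and Col1a2 and Col3a1 at 0 in FcMR replicates 2 and 3. Erythroid, mast cell and B-cell markers summed to at most 13 CPM in each of the 6 libraries, with none called. Markers of conventional dendritic cells, neutrophils and eosinophils summed to 90.7 to 113, 227 to 249 and 80 to 109 CPM with FcMR, ranges that overlapped those with isotype, 93.3 to 105, 206 to 241 and 97 to 137. Called among them were the dendritic cell markers Zbtb46 and Htr7 (higher), the neutrophil markers S100a8 (higher), Ltf and Ngp (lower), and the eosinophil marker Siglecf (lower). Those of plasmacytoid dendritic cells summed to 446 to 488 CPM with FcMR and 292 to 315 with isotype. Nearly all of that sum was Bst2, which interferon also induces and which was not called (0.67, edgeR adjusted p 0.112). The part of other cell types in these results was not tested.

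**Figure D1:**
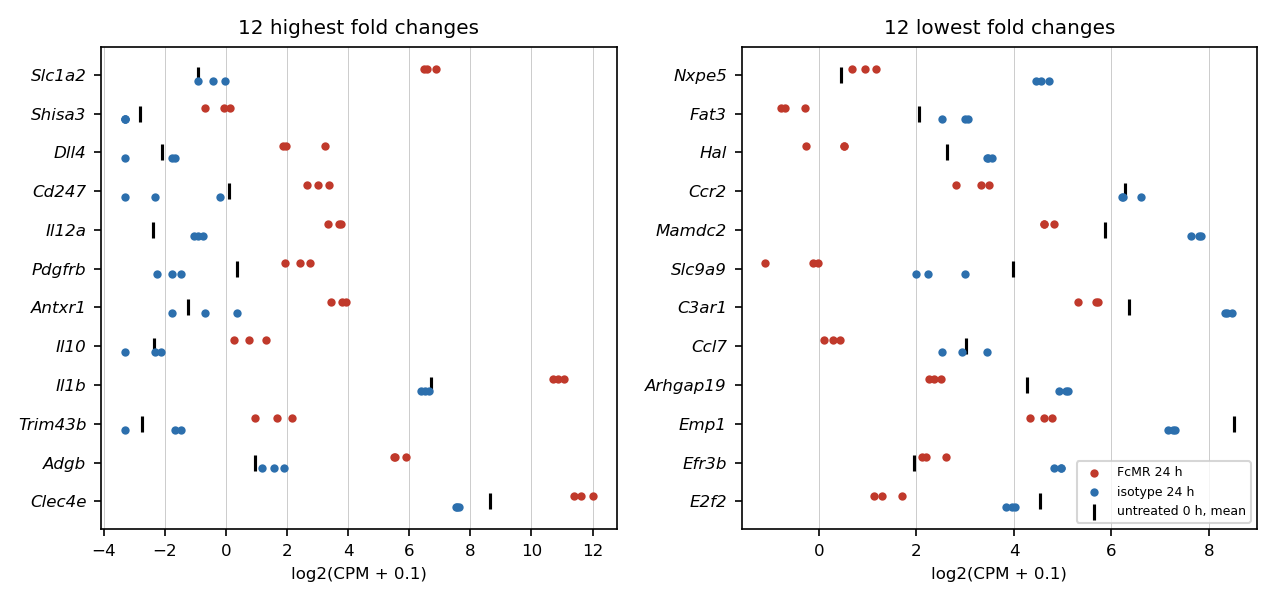
Levels of the 12 genes with the highest (left) and the 12 with the lowest (right) fold change, on a log2(CPM + 0.1) axis; each point is 1 library of 24 h, red for FcMR and blue for isotype, and the black tick is the untreated mean. Red and blue points do not overlap for any of the 24 genes, which the naming rule required, and Slc1a2 shows the widest gap, from below 1 CPM to about 100 CPM.

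The 12 genes with the lowest fold changes included receptors for chemoattractants, a chemokine and genes of adhesion and transport. The chemokine receptor gene Ccr2 (ENSMUSG00000049103.14, chromosome 9, 124101950 to 124113557), by which inflammatory monocytes follow Ccl2 and Ccl7, was at 11.2, 9.94 and 6.94 CPM with FcMR and 97.6, 75.7 and 73.9 CPM with isotype (log2 fold change −3.13, SE 0.363, edgeR adjusted p 4.72e-06). Both ligands fell as well, as described with the chemokines. C3ar1, the receptor for the complement fragment C3a, was at 51.4, 52.7 and 39.8 CPM with FcMR and 355, 328 and 322 CPM with isotype (log2 fold change −2.80, SE 0.153, edgeR adjusted p 5.08e-10). All isotype libraries of C3ar1 also lay above the untreated mean of 82.1 ± 11.9 CPM (SD, n = 3), and the FcMR libraries lay below it. Mamdc2, a gene of the extracellular matrix, was at 24.4, 24.5 and 28.4 CPM with FcMR and 199, 222 and 227 CPM with isotype (log2 fold change −3.07, SE 0.0872, edgeR adjusted p 1.42e-13). Nxpe5 showed the lowest fold change, −3.73 (SE 0.316), at 2.16, 1.5 and 1.83 CPM with FcMR and 26.2, 23.4 and 21.8 CPM with isotype. The untreated level of Nxpe5, 1.27 ± 0.12 CPM, was closer to that of FcMR cells.

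Fat3, an atypical cadherin, fell by 3.67, the histidine-degrading enzyme gene Hal by 3.38, the endosomal sodium-proton exchanger Slc9a9 by 2.88 and Arhgap19 by 2.70 on the log2 scale. Emp1, a small membrane protein gene, was at 19.9, 24.5 and 27.4 CPM with FcMR and 143, 154 and 158 CPM with isotype (log2 fold change −2.67, SE 0.132, edgeR adjusted p 1.82e-10), and untreated cells held more than both, 363 ± 57.9 CPM. Efr3b, a membrane anchor of a lipid kinase, fell by 2.64. E2f2, a transcription factor of the cell cycle, fell by 2.63 and is taken up with proliferation. All 24 genes kept their direction and stayed under the threshold without FcMR replicate 2. Of the 127 genes named by rule, 48 overlap another annotated gene, among them Slc1a2, Il1b, Dll4 and Acsl1, and no source used here says that counting used strand.

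Proliferation genes were lower with FcMR. Of 45 tested genes of mitosis and G2/M, the last phase before division, 29 were called lower and none higher, with a median log2 fold change of −1.15, where 9.44% of all genes were called lower and the median of all was 0.006. Of 40 genes of DNA replication and the G1/S transition, 23 were called lower and 1 higher, with a median of −0.7. The libraries did not overlap for 32 of the 45 mitosis genes and 27 of the 40 replication genes, where 34.4% of all genes did not overlap.

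The counts rested partly on single libraries. Without isotype replicate 1 the mitosis genes called lower numbered 12 and 1 was called higher, and without isotype replicate 2 they numbered 18. The replication genes called lower numbered 13 without isotype replicate 1. Without FcMR replicate 2 the 2 counts were 21 and 18, with medians of −1.09 and −0.70. The mean level of the mitosis list in replicates 1, 2 and 3 was 1.72, 1.68 and 1.39 log2 CPM with FcMR and 2.905, 2.57 and 2.265 with isotype. In all 7 groups replicate 3 was the lowest in this list. The FcMR libraries all lay below the isotype libraries, and the untreated libraries, at 4.00, 3.76 and 3.29, lay above both.

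Replication genes gave a similar separation. Their mean level was 3.0, 2.947 and 2.918 log2 CPM with FcMR and 3.897, 3.695 and 3.499 with isotype, and the untreated libraries, at 3.89, 3.64 and 3.47, overlapped the isotype libraries. The median FcMR effect on this list moved from −0.24 (4 h) through −0.485 (12 h) to −0.7 (24 h), while all genes had medians of −0.07, −0.02 and 0.006. By a test of the difference between effects, 9 replication genes were lower at 24 h than at 4 h (all genes 5.72%). In the same test 3 were higher (all genes 8.19%). Against 12 h none differed. The level with FcMR changed little, at 2.882 to 3.128 (4 h) and 3.024 to 3.114 (12 h). With isotype it was 3.134 to 3.241 (4 h) and 3.411 to 3.581 (12 h), below most 24 h isotype libraries. For the mitosis list the medians were −0.3, −0.5 and −1.15. Its level at 4 h was 2.526 to 3.113 with FcMR and 2.617 to 3.386 with isotype. At 12 h it was 1.452 to 1.747 with FcMR, near the 24 h level. With isotype at 12 h it was 1.854 to 2.151, below every 24 h isotype library. Of the mitosis genes, 9 had an FcMR effect that was lower at 24 h than at 4 h by the test of that difference and none was higher, where 5.72% of all genes were lower. Against 12 h, 1 was lower. These contrasts at 4, 12 and 24 h use separate libraries for both treatments.

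**Figure D2:**
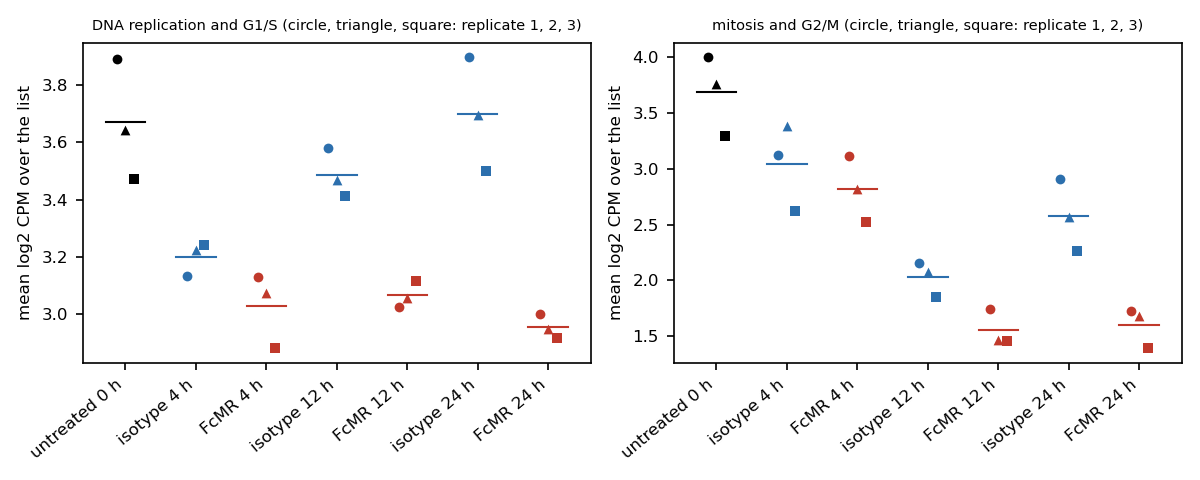
Mean log2 CPM over the 40 replication genes (left) and the 45 mitosis genes (right) in the 21 libraries; each symbol is 1 library, its shape the replicate number, its colour the treatment, and the line the group mean. At 24 h the FcMR libraries (2.918 to 3.0 and 1.39 to 1.72) lie below the isotype libraries (3.499 to 3.897 and 2.265 to 2.905) in both panels; the vertical axes do not start at 0.

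Among replication genes, Pcna, the sliding clamp of DNA polymerase, was at 121, 147 and 132 CPM with FcMR and 248, 234 and 247 CPM with isotype (log2 fold change −0.86, SE 0.0759, edgeR adjusted p 1.74e-07). It was the most abundant member called, and its groups did not overlap. E2f2, an activator of replication genes, was at 2.36, 2.09 and 3.16 CPM with FcMR and 16.1, 15.5 and 14.3 CPM with isotype (log2 fold change −2.63, SE 0.184, edgeR adjusted p 1.1e-08), the largest fall of the list. The origin-licensing factor Cdc6 was at 1.13, 1.03 and 0.73 CPM with FcMR and 5.97, 3.64 and 3.86 CPM with isotype (−2.19, edgeR adjusted p 0.000139), and Clspn, which encodes a checkpoint adaptor, fell by 2.23 (SE 0.315). The helicase subunit Mcm2 was at 6.47, 5.03 and 6.45 CPM with FcMR and 17.8, 15 and 12.7 CPM with isotype (−1.36, edgeR adjusted p 7.65e-05). Of the 6 subunits Mcm2 to Mcm7, all 6 were called lower, from −1.36 for Mcm2 to −0.39 for Mcm4. Tyms, the thymidylate synthase gene, was the only member called higher (0.70), and it was not called without FcMR replicate 2 (edgeR adjusted p 0.0871). E2f1 did not differ beyond the replicate spread (−0.00, SE 0.253).

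Among mitosis genes, the cyclin gene Ccnb2 showed the lowest fold change and was at 1.13, 0.587 and 0.73 CPM with FcMR and 4.11, 4.28 and 2.18 CPM with isotype (log2 fold change −2.20, SE 0.455, edgeR adjusted p 0.00168). Cyclin A2, from Ccna2, was at 2.57, 2.72 and 2.56 CPM with FcMR and 11.5, 8.03 and 6.04 CPM with isotype (log2 fold change −1.70, SE 0.36, edgeR adjusted p 0.00202). The mitotic kinesin Kif23 and the ubiquitin ligase partner Ube2c fell by 1.81 (SE 0.337) and 1.77 (SE 0.448), and Ube2c was not called without isotype replicate 2 (edgeR adjusted p 0.0543). Top2a, which untangles replicated DNA, was at 15.1, 16.2 and 10.2 CPM with FcMR and 36.7, 28.2 and 21.5 CPM with isotype (log2 fold change −1.05, SE 0.305, edgeR adjusted p 0.0198). Mki67, the gene of the proliferation marker Ki-67, went the other way without passing the test, at 51.6, 66.5 and 39.8 CPM with FcMR and 47.1, 32.3 and 27.6 CPM with isotype (log2 fold change 0.56, SE 0.243, edgeR adjusted p 0.118); without isotype replicate 1 it was called higher, by 0.83 (edgeR adjusted p 0.0451). Most members were scarce: Ccnb2, Ube2c and Kif23 lay below 8 CPM in each of the 6 libraries.

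Promoters of the lowered mitosis genes were searched for letters that textbook cell cycle genes share. The searches covered both strands of the RefSeq promoters of build GRCm38.p6, 250 bases before to 50 after the start, for TTTGAA, the core of the cell cycle homology region, and for CCAAT, the box bound by NF-Y. Of the 29 lowered genes 25 matched a promoter, and 18 of them (72%) held TTTGAA, against 20.2% of the 27025 genes of the promoter table. CCAAT was also present in 18 (72%), against 41.1%. In the 250 bases before the start alone, TTTGAA was found in 9 of 25 (36%, against 18.3%) and CCAAT in 18 (72%, against 37.5%). A match is a description of letters and shows no binding. Mitosis genes that were not called were not counted apart, so these shares cannot be tied to being lowered. The next lines give the 120 bases before the start of 3 lowered genes that hold both, read 5′ to 3′ on the strand of the gene, with each TTTGAA or CCAAT, or its reverse complement, in capitals. The windows are chr19:37376262-37376381, plus strand, for Kif11, a spindle motor, chr11:99024190-99024309, minus strand, for Top2a, and chr2:129297213-129297332, minus strand, for the spindle protein gene Ckap2l.
Kif11: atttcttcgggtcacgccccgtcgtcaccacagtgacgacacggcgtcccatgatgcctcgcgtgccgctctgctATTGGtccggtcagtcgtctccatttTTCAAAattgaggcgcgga
Top2a: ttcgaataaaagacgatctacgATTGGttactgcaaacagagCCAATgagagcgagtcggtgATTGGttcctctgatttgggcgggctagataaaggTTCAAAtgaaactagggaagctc
Ckap2l: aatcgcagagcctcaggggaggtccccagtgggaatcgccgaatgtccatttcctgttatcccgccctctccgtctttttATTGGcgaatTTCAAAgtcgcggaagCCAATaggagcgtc
In these windows no match of one motif overlaps a match of the other. Kif11 was at 2.67, 2.57 and 1.1 CPM with FcMR and 9.4, 4.5 and 5.27 CPM with isotype (−1.55, edgeR adjusted p 0.0111). For Ckap2l the values were 2.16, 2.46 and 1.34 CPM with FcMR and 6.27, 5.99 and 2.7 CPM with isotype (−1.29, edgeR adjusted p 0.00924). The 3 genes were lowest in replicate 3 among FcMR libraries, and the groups did not overlap.

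The cyclins and inhibitors of the G0 and G1 phases were divided. Of 29 tested, 7 were called lower (all genes 9.44%) and 3 higher (all genes 11.4%), with a median of −0.27. With GC correction 13 were called lower and 4 higher, and without FcMR replicate 2 the counts were 8 and 2. Ccnd1, which encodes cyclin D1 and links growth signals to cell cycle entry, was at 8.52, 7.6 and 6.57 CPM with FcMR and 45.2, 44.1 and 30.8 CPM with isotype (log2 fold change −2.40, SE 0.232, edgeR adjusted p 5.37e-07). Its relative Ccnd2 moved the other way, at 89.4, 121 and 87.4 CPM with FcMR and 35.8, 34 and 25.7 CPM with isotype (log2 fold change 1.64, SE 0.173, edgeR adjusted p 1.58e-06). Neither cyclin overlapped between the groups, and untreated cells held 24.3 ± 4.26 CPM of Ccnd1 and 89.2 ± 7.66 CPM of Ccnd2. Myc, a transcription factor of growth, was at 2.77, 2.2 and 4.14 CPM with FcMR and 10.5, 11.8 and 10.5 CPM with isotype (log2 fold change −1.91, SE 0.299, edgeR adjusted p 0.000129). The CDK inhibitor gene Cdkn2b was called higher (0.94) and Cdkn2c lower (−1.26), while Cdkn1a (−0.27, SE 0.114) and Cdkn1b (0.12, SE 0.149) did not pass the test.

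Cytokine and chemokine genes remained different at 24 h in both directions. Over 3 lists of interleukins, TNF family and colony-stimulating factors, CC chemokines and CXC chemokines, 26 of 55 tested genes were called higher, against 11.4% of all genes, and 10 lower, against 9.44%. By list, 16 of 31 interleukins and related cytokines were higher and 4 lower, with a median of 0.58, or 0.56 with scarce genes set to their bound or left out. Of the 11 CXC chemokines 7 were higher and 2 lower, with a median of 1.70. The 13 CC chemokines had 3 higher and 4 lower, or 6 lower with GC correction, and a median of −0.42. Without FcMR replicate 2 the 3 lists held 15, 7 and 3 members called higher and 4, 2 and 4 called lower.

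The interleukin genes called higher spanned inflammatory and dampening members. Il6 (ENSMUSG00000025746.11, chromosome 5, 30013114 to 30019981), an inducer of acute-phase proteins, was at 55.8, 93.7 and 47 CPM with FcMR and 5.48, 6.21 and 7.07 CPM with isotype (log2 fold change 3.40, SE 0.255, edgeR adjusted p 2.63e-08). FcMR replicate 2 was the highest of its group and the groups did not overlap; without it the log2 fold change was 3.05. Il12b, which encodes the p40 subunit shared by IL-12 and IL-23, was at 479, 615 and 418 CPM with FcMR and 68.1, 87.9 and 84.7 CPM with isotype (log2 fold change 2.65, SE 0.161, edgeR adjusted p 1.78e-09). Il1a was at 308, 410.0 and 250.05 CPM with FcMR and 41.2, 38.1 and 42.5 CPM with isotype (log2 fold change 2.99, SE 0.217, edgeR adjusted p 1.71e-08). Lif, a cytokine of the IL-6 family, rose by 2.18 (SE 0.254), and Tnfsf13b, the B-cell survival factor BAFF, by 1.42 (SE 0.207). The receptor antagonist Il1rn was the second most abundant of the list, at 1375, 1570.2 and 1310.3 CPM with FcMR and 1063, 1073 and 1067 CPM with isotype, and rose by 0.41 (SE 0.104). Among lowered members were the macrophage growth factor Csf1 (−0.78) and the TNF family genes Tnfsf12 (−1.26), Tnfsf13 (−1.51) and Tnfsf8 (−1.37).

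Neutrophil-attracting CXC chemokines were among the most raised. Cxcl3 was at 593, 818 and 650.4 CPM with FcMR and 76.9, 92.9 and 117 CPM with isotype (log2 fold change 2.85, SE 0.256, edgeR adjusted p 2.27e-07), and Cxcl1 at 14.9, 24 and 30.9 CPM with FcMR and 1.08, 1.39 and 2.96 CPM with isotype (log2 fold change 3.73, SE 0.536, edgeR adjusted p 5.12e-05). Cxcl2 rose by 2.31 (SE 0.213) and Cxcl5 by 2.06 (SE 0.335). The T-cell attracting chemokines Cxcl9 and Cxcl10 rose by 2.09 and 1.70. Ppbp, a platelet-type chemokine gene, was lower, at 12.6, 15.9 and 11 CPM with FcMR and 54.3, 68.9 and 56.9 CPM with isotype (log2 fold change −2.17, SE 0.164, edgeR adjusted p 2.78e-08), and Cxcl14 fell by 1.87. Of the CC chemokines, Ccl22, which attracts regulatory T cells, was at 2374, 2458 and 2351 CPM with FcMR and 609.5, 696 and 628 CPM with isotype (log2 fold change 1.89, SE 0.11, edgeR adjusted p 1.09e-09), and Ccl5 at 1983, 1908 and 2323 CPM with FcMR and 547, 653 and 663 CPM with isotype (log2 fold change 1.74, SE 0.288, edgeR adjusted p 0.000216). The monocyte chemokine Ccl2 was at 17.3, 18.1 and 12.3 CPM with FcMR and 76.6, 67.2 and 41 CPM with isotype (log2 fold change −1.94, SE 0.26, edgeR adjusted p 2.44e-05), and Ccl7 at 1.13, 1.25 and 0.973 CPM with FcMR and 10.8, 7.49 and 5.66 CPM with isotype (log2 fold change −2.80, SE 0.319, edgeR adjusted p 3.83e-06). For Ccl2 and Ccl7 every FcMR library lay below every isotype library, and the lowest isotype library was replicate 3. Ccl12, next to them on chromosome 11, fell by 2.35, with only 9 counts in the FcMR libraries together.

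Upstream sequence of raised chemokine genes was searched in the same way for GGGA and TTCC with any 2 bases between them, a form of the kB letters bound by NF-kB, on both strands. Of the 26 raised cytokine and chemokine genes, 21 matched a promoter, and 5 of these (23.8%) held the letters, against 1.63% of all genes in the table; in the 250 bases before the start the share was the same, against 1.36%. The other motifs were found in 1 (TTTGAA, 4.76%) and 7 (CCAAT, 33.3%) of the 21. The lines below give the 120 bases before the start of 3 of the 5, 5′ to 3′, with the matched letters in capitals, for comparison of the related genes Cxcl1 (chr5:90891125-90891244, plus strand) and Cxcl3 (chr5:90785981-90786100, plus strand) with Il6 (chr5:30012994-30013113, plus strand).
Cxcl1: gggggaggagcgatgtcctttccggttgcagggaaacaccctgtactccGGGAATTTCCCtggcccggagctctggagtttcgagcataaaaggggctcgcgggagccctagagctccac
Cxcl3: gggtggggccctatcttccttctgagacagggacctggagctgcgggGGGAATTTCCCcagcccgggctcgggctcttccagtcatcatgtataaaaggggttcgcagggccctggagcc
Il6: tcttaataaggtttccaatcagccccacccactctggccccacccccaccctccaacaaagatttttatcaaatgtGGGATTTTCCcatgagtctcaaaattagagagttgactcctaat
Cxcl1 and Cxcl3 carry the same 11 letters, which hold the motif on both strands, 1 base apart. Cxcl2, a related gene of chromosome 5 and also among the 5, carries these letters too. The 5 genes with the motif are therefore not 5 unrelated promoters. Il6 holds the motif once. As above, the letters are a description and not a measured site, and their absence from the other windows says nothing of the factor. Cytokine and chemokine genes that were lowered or not called were not counted apart, so these shares cannot be tied to being raised.

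The FcMR effect on secreted genes at 24 h was set against that at 4 and 12 h by tests of the differences. Of the 55 genes, 23 had an effect that differed between 24 h and 4 h, 7 higher at 24 h and 16 lower, where 13.9% of all genes differed. Of all genes 1103 (8.19%) had a higher effect and 770 (5.72%) a lower one, a split that turned with DESeq2's size factors in the same fit, 752 against 927. Among libraries of the earlier times, FcMR 12 h replicate 1 and isotype 4 h replicate 3 stood apart from their groups in GC tilt, at −0.731 against 0.7 and 0.797 and at 0.642 against −0.832 and −1.59, and in the order of the title numbers. Without both, the effects of 3713 genes differed between 24 h and 4 h, and all 23 of these secreted genes were among them. Against 12 h, 10 differed, 2 higher and 8 lower, where 1.73% of all genes did. The CC chemokines gave 7 of the 16 genes lower at 24 h than at 4 h and 6 of the 8 lower than at 12 h. For Ccl2 the effect was 1.36 at 4 h, then −0.22, and −1.94 by 24 h, and for Ccl7 the same series was 1.36, −0.38 and −2.80. Ccl3, which attracts monocytes and was called higher at 4 and 12 h, was at 65.7, 61.5 and 62.1 CPM with FcMR and 60.5, 62.1 and 59.8 CPM with isotype (log2 fold change 0.05, SE 0.108, edgeR adjusted p 0.804), after 2.87 at 4 h and 1.68 at 12 h, and the groups overlapped. The effect on Tnf, an early inflammatory cytokine, was 2.45 at 4 h and 0.55 at 24 h, when the gene was at 60.3, 69.2 and 73.6 CPM with FcMR and 42.3, 46.2 and 50.5 CPM with isotype, still without overlap.

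Other secreted genes had larger effects at 24 h. The effect on Il1b was larger at 24 h than at 4 h by 1.801 (edgeR adjusted p 1.37e-05), and that on Il12a by 1.95 (0.0014) and, against 12 h, by 1.52 (0.0285). Against 4 h, the effect on Ccl22 was larger by 0.98 (edgeR adjusted p 0.000301), that on Cxcl3 by 1.29 (0.0171) and that on Tnfsf13b by 1.62 (0.00653). Of the 10 differences from 12 h, 4 were still called without isotype replicate 1, with those of Il12a, Ccl2, Ccl4, Ccl6, Ccl12 and Ccl22 lost. Cxcl3 lost its difference from 4 h there. The other fits without 1 library of 24 h called 7 or 8 of the 10. In the fits without 1 library, Il12a was called only without FcMR replicate 1. Ccl22 was called only without FcMR replicate 3 or isotype replicate 2. Of the 23 differences from 4 h, 20 to 23 were still called in each fit without 1 library or with another setting, and none reversed. For Il6, the differences of 0.09 from 4 h (edgeR adjusted p 0.894) and −0.61 from 12 h (0.641) did not pass the test. The difference for Il10, 1.68 from 4 h (edgeR adjusted p 0.148), did not pass either.

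**Figure D3:**
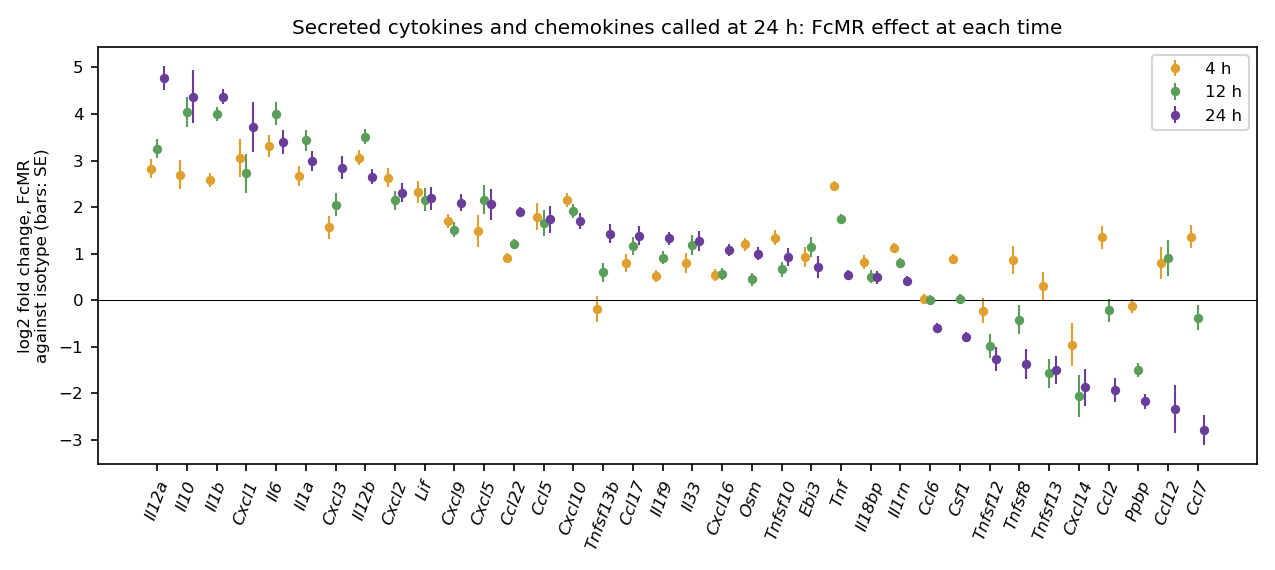
FcMR effect (log2 fold change against isotype, with its standard error) at 4, 12 and 24 h for the cytokine and chemokine genes called at 24 h, ordered by the 24 h value. Ccl2 and Ccl7 lie above 0 at 4 h (1.36 and 1.36) and below 0 at 24 h (−1.94 and −2.80), whereas the point values of Il12a and Il1b are largest at 24 h (4.77 and 4.37). For Il1b the difference from 12 h was not called, and for Il12a it was lost in most fits without 1 library of 24 h.

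Growth factors and feedback genes were mixed. Of 17 growth factor genes 5 were called higher (all genes 11.4%) and 4 lower (all genes 9.44%). Inhba, the subunit of activin A, was at 853, 1144 and 769.6 CPM with FcMR and 140.5, 114 and 159 CPM with isotype (log2 fold change 2.74, SE 0.166, edgeR adjusted p 1.78e-09), and the EGF receptor ligand Ereg rose by 3.70 (SE 0.444) from at most 3 counts per isotype library. Areg, another EGF receptor ligand, rose by 2.10 but was not called without FcMR replicate 2 (edgeR adjusted p 0.144). Osteopontin, from Spp1, was at 1528, 1455 and 1262 CPM with FcMR and 4563, 3839 and 4221 CPM with isotype (log2 fold change −1.57, SE 0.152, edgeR adjusted p 5.2e-07), and Igf1, insulin-like growth factor, fell by 1.28 (SE 0.0931). Of 30 NF-kB and cytokine feedback genes 14 were called higher and 2 lower, with a median of 0.51; with GC correction 21 were called higher, where 14.5% of all genes were. Nfkbia, which encodes the NF-kB inhibitor IkBa, was at 164, 156 and 196 CPM with FcMR and 61.3, 59.6 and 60.9 CPM with isotype (log2 fold change 1.503, SE 0.177, edgeR adjusted p 5.64e-06), and the cytokine signalling inhibitor Socs3 was at 43.8, 39.1 and 70.7 CPM with FcMR and 15.1, 14.3 and 17.6 CPM with isotype (log2 fold change 1.70, SE 0.322, edgeR adjusted p 0.000783). The dual-specificity phosphatases Dusp1, Dusp4 and Dusp16 rose by 1.13, 1.03 and 1.30, and Nlrc3 and Tsc22d3 were the members called lower.

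Surface receptors were called in both directions in every class examined, where 11.4% of all genes were called higher and 9.44% lower. Chemoattractant receptors had 5 of 18 called higher and 6 lower, where 20.9% of all genes were called. The formyl peptide receptor Fpr2, which senses bacterial peptides, was at 303, 370.0 and 248 CPM with FcMR and 51.6, 45.3 and 53 CPM with isotype (log2 fold change 2.62, SE 0.152, edgeR adjusted p 1.09e-09), and Fpr1 rose by 2.17 (SE 0.164). Ccrl2, which holds the chemoattractant chemerin at the cell surface, was at 101, 96.5 and 112 CPM with FcMR and 21.5, 22.2 and 21.2 CPM with isotype (log2 fold change 2.25, SE 0.0923, edgeR adjusted p 1.13e-11). On the lowered side, beside Ccr2 and C3ar1, the C5a receptor genes C5ar1 and C5ar2 fell by 1.29 (SE 0.119) and 2.28 (SE 0.356). Ccr7, which guides cells to lymph nodes, rose by 0.76 (SE 0.142).

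Pattern recognition receptors were divided by member. Cd14, a co-receptor for bacterial lipopolysaccharide, was at 847, 577 and 1048 CPM with FcMR and 185, 175 and 181 CPM with isotype (log2 fold change 2.19, SE 0.276, edgeR adjusted p 1.17e-05), and Tlr2 at 463, 490.2 and 384 CPM with FcMR and 138, 121 and 135 CPM with isotype (log2 fold change 1.76, SE 0.0969, edgeR adjusted p 5.45e-10). Tlr4 itself did not differ beyond the replicate spread (0.03, edgeR adjusted p 0.949). The nucleic acid sensors Tlr8, Tlr9 and Tlr13 fell by 0.82, 0.62 and 0.84, and Cd180, a modulator of Tlr4, by 1.08. In all, 5 of 22 were called higher (22.7%, all genes 11.4%) and 5 lower (22.7%, all genes 9.44%). The lower count was 3 without FcMR replicate 1 or isotype replicate 2, and both counts were 4 without FcMR replicate 2. Of 21 C-type lectins 5 rose (23.8%), among them Clec4e, its neighbour Clec4d (0.55) and the oxidised lipoprotein receptor Olr1 (1.67). In the same list 4 fell (19%), or 7 with GC correction and 3 without FcMR replicate 2, with Clec4b1 lowest (−1.99). Clec7a, the beta-glucan receptor Dectin-1, was not called (−0.15).

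Fc receptors bind the Fc part of antibodies, and FcMR carries a human one. Whether that part has a role in the differences below was not tested. Of 8 tested, 4 were called lower (50%, all genes 9.44%) and 2 higher (25%, all genes 11.4%). Lower were the activating receptor genes Fcgr1, Fcgr3 and Fcgr4 and the related Fcrls. Higher were the inhibitory Fcgr2b and the shared signalling chain Fcer1g. Fcgr1 was at 84, 80.2 and 74.1 CPM with FcMR and 178, 177 and 179 CPM with isotype (log2 fold change −1.16, SE 0.103, edgeR adjusted p 1.93e-07). Fcgr2b was at 615, 644 and 613 CPM with FcMR and 326, 323 and 369 CPM with isotype (log2 fold change 0.88, SE 0.0949, edgeR adjusted p 1.97e-06). For both genes the groups did not overlap. At 4 h the Fcgr1 effect was 0.78, and its difference from 24 h was −1.94 (edgeR adjusted p 2.06e-07).

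Among receptors for the uptake of lipoproteins and dead cells, 13 of 22 were called lower and 2 higher, where 9.44% of all genes were lower and 11.4% higher, with a median of −0.73. The counts were 11 and 1 without FcMR replicate 2 and 16 and 1 with GC correction. Trem2, a lipid receptor, was at 102, 78.4 and 134 CPM with FcMR and 305, 289 and 299 CPM with isotype (log2 fold change −1.51, SE 0.276, edgeR adjusted p 0.000577). Mfge8, a bridge between dying cells and integrins, was at 734, 453 and 1060.1 CPM with FcMR and 1536, 1569 and 1580.5 CPM with isotype (−1.06, edgeR adjusted p 0.0259) and was not called without FcMR replicate 2, which was its lowest library (0.119). The bridging protein genes Gas6 and Pros1 fell by 1.44 and 1.59 and their receptor Mertk by 0.63. Marco, a scavenger receptor for bacteria and particles, was the exception with a large rise, at 335, 209 and 401 CPM with FcMR and 96.5, 61.9 and 89.7 CPM with isotype (log2 fold change 1.93, SE 0.332, edgeR adjusted p 0.000324). Scarb2 was the other member called higher, by 0.30, and only Marco was called higher in each fit that left out 1 library other than FcMR replicate 3.

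The CD300 and paired immunoglobulin-like receptors were the receptor list with the largest share called, 21 of 27. Of these 14 were lower (51.9% of the list, all genes 9.44%) and 7 higher (25.9%, all genes 11.4%), with a median of −0.53. Cd300lb was at 122, 109 and 119 CPM with FcMR and 278, 275 and 294 CPM with isotype (log2 fold change −1.28, SE 0.0914, edgeR adjusted p 1.42e-08), and Cd300a, an inhibitory member, at 31.6, 26.4 and 26.8 CPM with FcMR and 89, 73.6 and 73.8 CPM with isotype (log2 fold change −1.48, SE 0.0941, edgeR adjusted p 3.03e-09). Cd300e, another activating family member, was at 9.24, 9.58 and 7.42 CPM with FcMR and 0.49, 1.07 and 0.643 CPM with isotype (log2 fold change 3.57, SE 0.273, edgeR adjusted p 3.27e-08). Trem1, which amplifies inflammatory signals, rose by 2.57 (SE 0.157) and Treml4 by 2.66 (SE 0.127), opposite to Trem2. The Siglec genes were split, with Siglece higher (1.61) and Siglecf (−2.13) and Siglec1 (−1.03) lower.

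Of 24 T-cell costimulators and checkpoint ligands 13 were called higher (all genes 11.4%) and 5 lower (all genes 9.44%), with a median of 0.57. Cd40 was at 122, 121 and 156 CPM with FcMR and 32.9, 41 and 36.9 CPM with isotype (log2 fold change 1.85, SE 0.197, edgeR adjusted p 1.74e-06). The CD28 ligand Cd86 was at 116, 150.3 and 96.9 CPM with FcMR and 53.1, 55.3 and 50.6 CPM with isotype (1.19, edgeR adjusted p 1.11e-05), and Cd80 rose by 1.33 (SE 0.17). The inhibitory ligand Cd274, or PD-L1, was at 720.3, 847 and 674 CPM with FcMR and 421, 421 and 451 CPM with isotype (0.79, edgeR adjusted p 6.18e-06). Tnfsf4 and Slamf1 rose by 1.67 and 1.75, and the inhibitory Vsir fell by 0.99. Among 18 genes of MHC class II presentation 6 were called higher and 2 lower, against the same shares, but the abundant chains were not called: H2-Ab1 was at 739.9, 571 and 1040.5 CPM with FcMR and 634, 654 and 675 CPM with isotype (0.26, edgeR adjusted p 0.59) and the groups overlapped. The members called higher lay at lower levels, such as the regulators Ciita (0.71) and Rfx5 (0.89) and the accessory chain H2-Ob (0.89).

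Integrins and adhesion molecules had 5 of 26 called higher (19.2%, all genes 11.4%) and 11 lower (42.3%, all genes 9.44%). The count of lower calls was 6 without FcMR replicate 2 and 6 without isotype replicate 1. Itgam, the CD11b chain, was at 885, 856 and 866 CPM with FcMR and 1801, 1679.6 and 1767 CPM with isotype (log2 fold change −1.01, SE 0.124, edgeR adjusted p 8.74e-06). Itgax, the CD11c chain, differed little (−0.22, edgeR adjusted p 0.0208), and it lost its call in 5 of the 6 fits without 1 library. Vcam1 and Icam1, ligands of integrins, rose by 1.57 and 0.86, while Itga6 and Itgb5 fell by 1.76 and 1.41. Of 36 cytokine and growth factor receptors, 5 were called higher (13.9%, near the share of all genes), led by the decoy receptor Il1r2 (1.49). Without FcMR replicate 2 the number was 4. Lower calls numbered 9 (25%), led by the IL-18 receptor chains Il18r1 (−1.67) and Il18rap (−1.62). The receptor chains for GM-CSF, the growth factor named for these cultures, were not called (Csf2ra −0.45, Csf2rb −0.10). Csf1r, the receptor for Csf1, was not called either (0.07). Purinergic receptors and ectonucleotidases had 4 of 19 higher (21.1%) and 5 lower (26.3%), with Enpp4 highest (2.21). The lower calls numbered 3 without FcMR replicate 1 or isotype replicate 1. Without FcMR replicate 2 there were 3 higher and 4 lower.

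**Figure D4:**
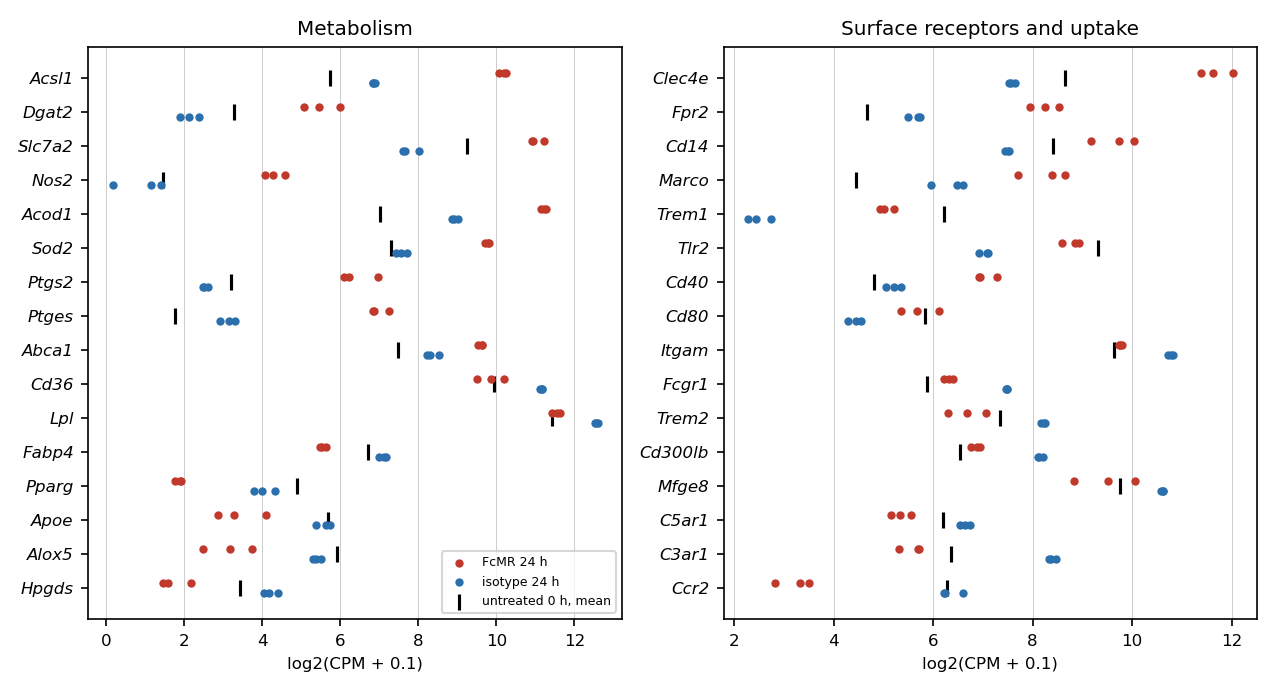
Levels of 16 metabolic genes (left) and 16 genes of surface receptors and uptake (right) on a log2(CPM + 0.1) axis; each point is 1 library of 24 h, red for FcMR and blue for isotype, and the black tick is the untreated mean. The groups do not overlap for the genes shown, and raised genes such as Acsl1 and Clec4e stand above lowered genes such as Hpgds and Ccr2; the genes were chosen for display after their values were seen.

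Of 40 subunits of oxidative phosphorylation 2 were called, both higher (5%, where 20.9% of all genes were called), with a median of −0.04, and they fell to 1 or none in 5 of the 6 fits without 1 library. Of 28 glycolysis genes 2 were called higher and 2 lower, with a median of 0.11, and without FcMR replicate 2 the numbers were 5 and 1, and without FcMR replicate 1, isotype replicate 1 or isotype replicate 2 none was called lower. With GC correction, where 29.6% of all genes were called, the counts were 7 higher and 3 lower for glycolysis, 3 and 3 for oxidative phosphorylation and 4 and 5 for the tricarboxylic acid cycle. Pfkfb3, an activator of glycolysis, was at 576, 652 and 526 CPM with FcMR and 366, 419 and 374 CPM with isotype (log2 fold change 0.60, SE 0.0898, edgeR adjusted p 7.98e-05), and Pgk1, a glycolytic enzyme, rose by 0.45 (SE 0.104). Lactate dehydrogenase Ldha (0.26) and the glucose transporter Slc2a1 (0.03) were not called. The tricarboxylic acid cycle list had 4 of 26 called higher (15.4%, all genes 11.4%) and 1 lower (3.85%, all genes 9.44%). The higher count was 1 without isotype replicate 1 or 2 and 2 without isotype replicate 3 or FcMR replicate 1. Its member Pcx was called higher, but not without FcMR replicate 1 (1.35, edgeR adjusted p 0.0527) or 3 (0.91, 0.125). The largest change of the list was Acod1, the enzyme that turns aconitate into the antibacterial metabolite itaconate. Acod1 was at 2479, 2256 and 2369.7 CPM with FcMR and 479, 465 and 518 CPM with isotype (log2 fold change 2.28, SE 0.0934, edgeR adjusted p 1.13e-11). Untreated cells held 131 ± 18 CPM of Acod1.

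Fatty acid genes moved in both directions. Acsl1, which activates fatty acids for storage or oxidation, was at 1169.6, 1211 and 1066 CPM with FcMR and 115, 115 and 119.5 CPM with isotype (log2 fold change 3.30, SE 0.0966, edgeR adjusted p 1.42e-13). Dgat2, an enzyme of triglyceride synthesis, was at 44, 33.7 and 63.4 CPM with FcMR and 3.62, 4.28 and 5.14 CPM with isotype (log2 fold change 3.44, SE 0.286, edgeR adjusted p 8.74e-08). Both stood above untreated cells, at 53.3 ± 4.08 and 9.55 ± 1.89 CPM. Several genes of fatty acid uptake were lowered. Cd36, a fatty acid transporter, was at 933, 1169.5 and 723 CPM with FcMR and 2224, 2295 and 2325 CPM with isotype (log2 fold change −1.28, SE 0.15, edgeR adjusted p 5.35e-06), and the lipoprotein lipase gene Lpl at 3035, 3149 and 2749 CPM with FcMR and 5963, 5908 and 6179.8 CPM with isotype (log2 fold change −1.01, SE 0.117, edgeR adjusted p 4.63e-06). Their regulator Pparg was at 3.7, 3.3 and 3.65 CPM with FcMR and 16, 20.1 and 13.8 CPM with isotype (log2 fold change −2.24, SE 0.172, edgeR adjusted p 3.49e-08), and the fatty acid binding protein gene Fabp4 fell by 1.55 (SE 0.123). In all, 5 of 36 fatty acid genes were called higher (13.9%), a share near that of all genes (11.4%). Lower calls numbered 8 (22.2%, all genes 9.44%), and the median was −0.04. None of the mitochondrial dehydrogenases Acadm, Acadl and Acadvl was called.

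Of 23 sterol synthesis genes 4 were called lower and none higher, 17.4% in all where 20.9% of all genes were called, with a median of −0.19. With GC correction 8 were lower and 1 higher; without that correction, the number lower was 1 without FcMR replicate 1, 2 without isotype replicate 1 and 6 without FcMR replicate 2. Sqle, squalene epoxidase, was at 58.8, 72.9 and 65.2 CPM with FcMR and 98.6, 94 and 93.8 CPM with isotype (log2 fold change −0.54, SE 0.0879, edgeR adjusted p 0.000191). The targets of the sterol sensor LXR had 7 of 19 called lower (36.8%, all genes 9.44%) and 1 higher (5.26%, all genes 11.4%). The counts were 10 and 2 with GC correction and 5 and 1 without FcMR replicate 2, and the median was −0.17. The one called higher without the correction was the cholesterol exporter Abca1, at 743, 796 and 797 CPM with FcMR and 313, 301 and 369 CPM with isotype (log2 fold change 1.25, SE 0.104, edgeR adjusted p 9.29e-08). Apoe, the lipoprotein that accepts cholesterol, was at 9.55, 7.16 and 17 CPM with FcMR and 53.3, 41.6 and 49.9 CPM with isotype (log2 fold change −2.14, SE 0.607, edgeR adjusted p 0.0166), and it was not called without FcMR replicate 1 (edgeR adjusted p 0.0614) or 2 (0.0809). Cyp27a1, which makes a sterol ligand of LXR, fell by 1.38 (SE 0.211).

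Arginine and prostaglandin enzymes held some of the largest metabolic changes. Nos2, which makes nitric oxide from arginine, was at 24.1, 19.3 and 16.8 CPM with FcMR and 2.55, 2.14 and 1.03 CPM with isotype (log2 fold change 3.36, SE 0.307, edgeR adjusted p 2.73e-07). Slc7a2, an arginine transporter, was at 1958, 2373 and 1927 CPM with FcMR and 197, 202 and 259 CPM with isotype (log2 fold change 3.25, SE 0.117, edgeR adjusted p 3.69e-12). Arg2, the mitochondrial arginase, rose by 1.70 (SE 0.19), while Arg1, the arginase of alternative activation, was not called, at 4.52, 3.16 and 3.41 CPM with FcMR and 7.35, 4.6 and 3.6 CPM with isotype (−0.52, edgeR adjusted p 0.332). Ptgs2, the inducible cyclooxygenase COX-2, was at 75.1, 126 and 68.5 CPM with FcMR and 5.48, 5.57 and 6.04 CPM with isotype (log2 fold change 3.99, SE 0.215, edgeR adjusted p 4.46e-10). Ptges, which forms prostaglandin E2, was at 117, 114 and 154 CPM with FcMR and 7.54, 8.78 and 9.77 CPM with isotype (log2 fold change 3.89, SE 0.216, edgeR adjusted p 6.13e-10). Other branches of the pathway were lower: Hpgds, for prostaglandin D2, fell by 2.42 (SE 0.27), the leukotriene enzyme gene Alox5 by 2.24 (SE 0.228), thromboxane synthase Tbxas1 by 0.87 and the constitutive Ptgs1 by 0.85. In the arginine list 5 of 16 were called higher (31.2%, all genes 11.4%) and 3 lower (18.8%, all genes 9.44%). The lower count was 1 without any one isotype library, 2 without FcMR replicate 2 and 6 with GC correction. In the prostaglandin list 3 of 17 were called higher (17.6%) and 7 lower (41.2%), or 3 and 5 without FcMR replicate 2, with a median of −0.32.

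Of 24 targets of the stress factor NRF2, many of them antioxidant genes, 13 were called higher (all genes 11.4%) and none lower, with a median of 0.36; 11 were not called, and 5 had a fold change below 0. Sod2, the mitochondrial superoxide dismutase, was at 832, 893 and 883 CPM with FcMR and 172, 190.0 and 211 CPM with isotype (log2 fold change 2.19, SE 0.088, edgeR adjusted p 1.13e-11). Hmox1, the heme oxygenase gene, was at 3215, 2595 and 3472 CPM with FcMR and 1385, 1452 and 1519 CPM with isotype (log2 fold change 1.09, SE 0.18, edgeR adjusted p 0.000208). The malic enzyme gene Me1 rose by 1.29 (SE 0.12). The median of 25 amino acid transporters and genes of the ATF4 stress response was 0.04. In this list 4 were called lower (16%, all genes 9.44%) and 7 higher (28%, all genes 11.4%). Besides Slc1a2 these were led by Phgdh, the first enzyme of serine synthesis, at 15, 7.63 and 19.6 CPM with FcMR and 1.86, 2.57 and 1.41 CPM with isotype (log2 fold change 2.80, SE 0.362, edgeR adjusted p 1.61e-05), and Ddit4 (1.39). The cystine transporter Slc7a11 rose by 0.93, whereas the stress factor Atf3 fell by 0.51 and Psat1, the enzyme after Phgdh, by 0.62. Aldh1l2 had no counts with isotype and was at least 4.63-fold higher.

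Interferon-stimulated genes were the list with the largest share called in 1 direction: 27 of 36 were called higher (75%, where 11.4% of all genes were) and none lower, with a median of 0.72. Gbp2, a guanylate-binding protein that attacks pathogen vacuoles, was at 761, 896 and 572 CPM with FcMR and 131, 134 and 134 CPM with isotype (log2 fold change 2.48, SE 0.152, edgeR adjusted p 1.95e-09). Ifit1, an antiviral RNA-binding protein, was at 319, 401 and 239 CPM with FcMR and 108, 92.1 and 104 CPM with isotype (log2 fold change 1.66, SE 0.168, edgeR adjusted p 9.75e-07), and Isg15 rose by 1.29 (SE 0.224). Members not called included Mx1 (−0.06), Stat2 (0.06) and the synthetases Oas2 (0.05) and Oas3 (0.05). With isotype at 24 h, Oas3 was above untreated cells of 0 h, a difference that joins treatment and time. It was at 186 ± 6.94 CPM with isotype and 8.67 ± 3.43 CPM untreated (SD, n = 3 each). At 4 h the median was 0.98 and 34 of 36 were called higher (all genes 8.62%), and at 12 h 25 were (all genes 8.61%). By the test of the difference 5 members were lower at 24 h than at 4 h (all genes 5.72%) and 2 higher (all genes 8.19%).

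Secreted defence proteins and proteases were raised and lowered side by side. Of 24 acute-phase and defence genes 11 were called higher (45.8%, all genes 11.4%) and 6 lower (25%, all genes 9.44%). Their median was 0.59. Saa3, a serum amyloid of macrophages, was at 3749, 3500.0 and 5117 CPM with FcMR and 455, 513 and 539 CPM with isotype (log2 fold change 3.04, SE 0.191, edgeR adjusted p 2.73e-09). The complement factor Cfb was at 4145, 3488 and 4476 CPM with FcMR and 911, 824 and 1041 CPM with isotype (log2 fold change 2.13, SE 0.128, edgeR adjusted p 1.6e-09), and the iron-chelating Lcn2 rose by 2.39 (SE 0.218). The 3 chains of complement C1q went the other way: C1qb was at 37.8, 28.3 and 56.6 CPM with FcMR and 153, 163 and 140.3 CPM with isotype (log2 fold change −1.91, SE 0.273, edgeR adjusted p 4.87e-05), C1qa fell by 1.68 and C1qc by 2.20. For the plasminogen system, the inhibitor gene Serpinb2 rose by 3.19 (SE 0.245), and the activator Plau was at 74.5, 70.9 and 71.7 CPM with FcMR and 234, 249 and 236 CPM with isotype (log2 fold change −1.73, SE 0.109, edgeR adjusted p 2.91e-09). Matrix metalloproteinases were split, with Mmp2 (1.34), Mmp9 (0.90) and Mmp14 (0.51) higher and Mmp8 (−1.47), Mmp12 (−0.72) and Mmp13 (−1.16) lower. Over the protease list, 10 of 26 were called higher and 10 lower (38.5% each, all genes 11.4% and 9.44%).

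Of 30 lysosomal hydrolase and proton pump genes 14 were called lower (all genes 9.44%) and none higher, with a median of −0.32; without FcMR replicate 2 the counts were 12 and 1, and with GC correction 17 and 2. Lgmn, an asparagine-cutting protease, was at 203, 171 and 183 CPM with FcMR and 648, 609.7 and 619 CPM with isotype (log2 fold change −1.75, SE 0.0852, edgeR adjusted p 1.38e-10). Ctsl, the protease cathepsin L, was at 731, 751 and 724 CPM with FcMR and 1496, 1538 and 1535 CPM with isotype (log2 fold change −1.05, SE 0.0813, edgeR adjusted p 3.66e-08), and the pump subunit Atp6v0a1 fell by 1.28 (SE 0.101). Untreated cells held 659.6 ± 61.1 CPM of Ctsl (SD, n = 3), closer to the FcMR level. At 4 h 4 members were called lower (all genes 9.13%) and at 12 h 7 (all genes 7.49%), and 10 had a lower effect at 24 h than at 4 h by the test of the difference (all genes 5.72%). Genes of alternative activation had 5 of 21 called higher (23.8%, all genes 11.4%) and 7 lower (33.3%, all genes 9.44%). The lower count was 3 without FcMR replicate 2, and the median was −0.45.

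**Figure D5:**
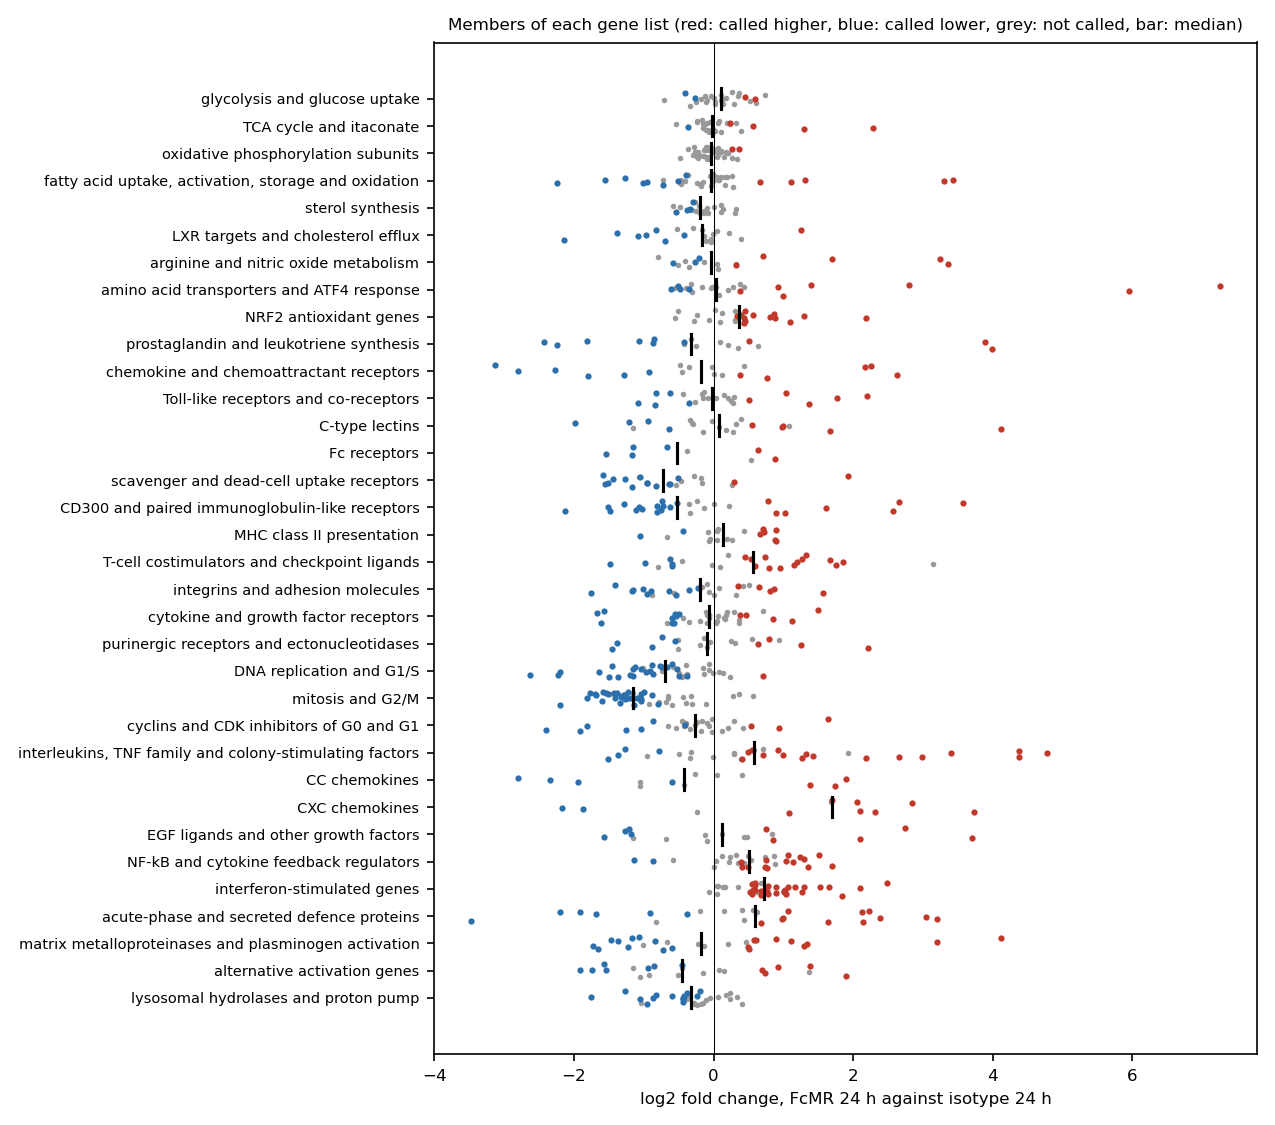
Log2 fold change, FcMR against isotype at 24 h, of every tested member of the gene lists; each point is 1 gene (red called higher, blue called lower, grey not called) and the bar is the median of the list. The medians of mitosis (−1.15), uptake receptors (−0.73) and replication (−0.7) lie lowest and those of CXC chemokines (1.70) and interferon-stimulated genes (0.72) highest, while oxidative phosphorylation subunits lie within 0.5 of 0.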

How the data were processed

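Messenger RNA of mouse marrow-derived macrophages had been sequenced in 21 libraries as 75 base single reads, and 6 libraries entered the comparison at 24 h. Per the submitters' processing notes, CASAVA 1.8.2, kallisto 0.44.0 and DESeq2 were used with mm10 and GRCm38; the role of each is not stated there. The authors deposited a table of estimated counts per gene, which were rounded to whole numbers here, and a table of normalized values, a signal that served only in an alternative with limma. Library totals ran from 7402006 to 26310320 counts at 24 h. The counts column of each library was matched by the number in its title.

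From the counts, 1 model with a mean for each of the 7 groups was fitted to all 21 libraries with edgeR 4.0.16 (R 4.3.3), using TMM factors, a filter for low expression at a minimum count of 10 (13468 of 23250 genes kept) and the quasi-likelihood test. Genes with a Benjamini-Hochberg adjusted p under 0.05 over all tested genes were called. The FcMR effect at 24 h was also tested against that at 4 h and 12 h in the same model. Levels are CPM with TMM factors. Intervals and limits from 3 counts cover counting error only. Gene annotation and GC content came from the reference annotation of GRCm38, and promoters from RefSeq, build GRCm38.p6.

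Named genes were the 12 highest and 12 lowest fold changes among called protein-coding genes whose mean over all 21 libraries was 1 log2 CPM or more and whose groups did not overlap, the 3 called members with the largest absolute change in each of 34 lists that averaged 0 log2 CPM or more, genes fixed by name, and other list members as examples. The members and lists were chosen with earlier results of these data known. Of 852 listed genes 823 were tested. Alternatives were DESeq2 1.42.0, limma 3.58.1 on the deposited normalized values, other size factors and filters, a GC correction, a replicate block, the 6 libraries alone and leaving out libraries. Python 3.11.15 with pandas 2.3.3 and scipy 1.17.1 served for summaries. The model has no block for replicate numbers, since no label ties same-numbered libraries. Some genes that the naming rule covers are not reported here.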

Additional observations from a re-analysis of the deposited data

Results flagged for a closer look

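The FcMR effect on 23 cytokine and chemokine genes at 24 h differed from that at 4 h by the interaction test in edgeR, and 10 of these differed from 12 h as well. The values that follow are log2 differences between the effects, positive where the effect was higher at 24 h. Genes with a higher effect at 24 h than at 4 h were Il1b (1.801), Il12a (1.95), Il1f9 (0.81), Tnfsf13b (1.62), Ccl22 (0.98), Ccl25 (1.03) and Cxcl3 (1.29). Il12a, Il1b and Cxcl3 encode inflammatory signals and Ccl22 a chemokine for regulatory T cells; Ccl25 lost this call in most alternatives.

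Among CC chemokines, which draw monocytes and other leukocytes, lower effects at 24 h than at 4 h were seen for Ccl2 (−3.30), Ccl3 (−2.82), Ccl4 (−3.58), Ccl6 (−0.62), Ccl7 (−4.16), Ccl12 (−3.15) and Ccl24 (−1.74). Among interleukins and TNF family genes they were seen for Il1rn (−0.70), Il15 (−1.07), Il23a (−4.15), Il27 (−2.64), Tnf (−1.91), Tnfsf8 (−2.23) and Tnfsf13 (−1.81), and besides for Csf1 (−1.67) and Ppbp (−2.04). These include Il23a and Il27, subunits of cytokines that act on T cells. The effect on Il23a was among those that fell furthest, and the difference for Il27 was not called without isotype 24 h replicate 1.

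Against 12 h, the effect at 24 h was higher for Il12a (1.51) and Ccl22 (0.68) and lower for Tnf (−1.19), Csf1 (−0.81), Ccl2 (−1.72), Ccl3 (−1.63), Ccl4 (−1.29), Ccl6 (−0.60), Ccl7 (−2.42) and Ccl12 (−3.25). Without isotype 24 h replicate 1 only 4 of these 10 differences were called, those of Tnf, Csf1, Ccl3 and Ccl7. The other fits without 1 library of 24 h called 7 or 8, and most of them lost Il12a or Ccl22. Libraries of the earlier times with GC tilts unlike their groups, FcMR 12 h replicate 1 and isotype 4 h replicate 3, enter these tests; without both, 9 of the 10 and all 23 were called. Any part of GC content in these values was not tested further.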

How the results depend on the processing

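At 24 h, 2813 genes were called, and 1995 to 3992 were called under each alternative without a block or a left-out library: 2729 with DESeq2's size factors in edgeR, 2895 with DESeq2, 2288 with limma on the deposited normalized values, 2377 with no expression filter, 2778 with a mean of at least 10 counts, 1995 with the 6 libraries alone and 3992 with GC correction. Without FcMR 12 h replicate 1 and isotype 4 h replicate 3 it was 3544. Leaving out 1 library of 24 h gave 2091 to 3135. Of the 120 named genes called, 110 to 120 remained called in each setting (of 116 tested in the fit of 6 libraries) and none reversed.

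The test of 24 h against 4 h effects called 1873 genes. It called 1199 with no expression filter, 3114 with GC correction and 3713 without FcMR 12 h replicate 1 and isotype 4 h replicate 3; leaving out 1 library of 24 h gave 1300 to 2344. The test against 12 h called 233 genes, 138 with limma, 154 with no expression filter, 363 with DESeq2 and 653 with GC correction, and 156 to 223 without 1 library of 24 h. The cause of these shifts was not tested. TTTGAA was found in 18 promoters of lowered mitosis genes, and in 9 where only the bases before the start were searched. Over all genes of the promoter table the share moved from 20.2% to 18.3%.

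A fit with replicate numbers as a block called 2911 genes at 24 h, and 2011 for the difference from 4 h and 285 for that from 12 h; with the block and GC correction together the numbers were 4100, 3302 and 745. No label ties same-numbered libraries, and over all genes their deviations at 24 h correlated at 0.0357, −0.000824 and 0.00651, with FcMR replicate 2 closer to isotype replicate 1 (0.0054). The mean level of the mitosis list was lowest in replicate 3 in all 7 groups and highest in replicate 1 in 6. With the block, 32 mitosis genes were called lower and 1 higher, against 29 and 0 without it. The block called Mki67 higher (0.57, edgeR adjusted p 0.0319). Depth limits genes at or below 0.405 CPM, where the shallowest library holds 3 counts.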
